A study of Mus with 4 samples.

Results

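The fibrillar collagens are the collagen chains that assemble into the banded fibrils of connective tissue. Of their genes, 10 (Col1a1, Col1a2, Col2a1, Col3a1, Col5a1, Col5a2, Col5a3, Col11a1, Col11a2 and Col27a1) were taken by gene symbol, with every probe that carried the symbol, from the 26893 named genes of the array. Below, the term fibrillar collagens means these 10 genes, which need not be the whole family. Their chains are made as procollagens in the endoplasmic reticulum, where prolines and lysines are hydroxylated before the triple helix folds, and leave it in COPII-coated carriers. Outside the cell the propeptides are cut off, the trimmed molecules align into fibrils, and lysyl oxidases cross-link them. In the healthy glomerulus the podocyte rests on a basement membrane built mainly of type IV collagen, a network-forming collagen, and fibrillar collagens accumulate where the glomerulus or the interstitium scars.

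RNA came from an immortalised murine podocyte cell line that had been differentiated under nonpermissive conditions. The 2 control samples, called Venus here, received a lentivirus for the fluorescent protein Venus, and the other 2, called OASIS, received a lentivirus for the N-terminal, active form of the transcription factor OASIS, the product of Creb3l1. Both viruses were given for 24 h with 8 µg/mL polybrene, and RNA was taken 48 h after the virus was added. The comparison asked which podocyte genes change with the active form of OASIS. Both groups thus carried a lentivirus and differed in the gene that it expressed. The labels do not say whether the samples of a group came from separate cultures, so that the p-values measure the spread between these samples, which may be technical.

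The samples were read with 1 Agilent array each, in a single colour, and 1 slide and 1 scan held all 4 arrays. Between 33938 and 34418 of the 59305 spots that are not controls were well above background, and none was saturated. The single Creb3l1 probe, at band qE1 of chromosome 2, read 0.69 and 0.70 on the Venus arrays, against 0.58 and 0.47 on the OASIS arrays, as log2 intensity relative to the 75th percentile of the array. Its log2 fold change was -0.17 ± 0.10 (SE, n = 2 per group, limma, adjusted p = 0.292). Its place on the transcript, and whether the viral insert contains that stretch, was not analysed here, so that the probe does not check the labels. The study also ran an anti-OASIS immunoblot on podocytes given such viruses, which was not read here. Of 12 podocyte marker genes 8 passed the filter on background. Synpo, which encodes the podocyte actin-binding protein synaptopodin, was well above background on all 4 arrays by every probe, and Podxl, for the surface sialomucin podocalyxin, by 1 of its 2 probes. Nphs1, for the slit diaphragm protein nephrin, was well above background by 1 of 2 probes on 1 Venus array only. The transcription factor gene Wt1 changed by 4.62 ± 0.21 (log2 fold change ± SE, limma, adjusted p = 0.0022) by its brighter probe and by -0.16 ± 0.11 (adjusted p = 0.335) by the other. The first probe was the brighter only through the OASIS arrays. On the Venus arrays it read 16.9 and 25.2 in intensity corrected for background, against 34.7 and 34.0 for the other probe.

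The fibrillar collagen genes split into genes that rose with OASIS and genes that did not pass the test or could not be measured. The type I collagen chains Col1a1 and Col1a2 and the type V chain Col5a1 rose. The type V chain Col5a2 rose by its brighter probe only. Its other tested probe did not pass, at a log2 fold change of -0.38, nor did the mean of both, at 0.43 (limma, adjusted p = 0.271). The cartilage-type chains Col2a1, Col11a1, Col11a2 and Col27a1 did not pass the threshold, which was that of the study's methods, a fold over 2.0 or under 0.5 with an adjusted p under 0.1. Col3a1 and Col5a3 had no probe that could be tested. The array held 24 probes for these genes, 11 of which were tested because 1 group or both had them well above background on each of its arrays. Of these, 6 probes were higher with OASIS, 0 were lower and 5 did not pass. Over all 31590 probes tested 5.86% were higher and 2.48% were lower. Counted by gene, each represented by its brightest probe, 4 of the 8 tested genes were higher and 0 were lower, beside 6.19% higher and 1.86% lower of all 16313 genes tested. At an unadjusted p under 0.05 no fibrillar collagen probe was lower either. The median log2 fold change of the 8 tested genes was 0.84, and that of all genes tested was -0.059. The genes were chosen with earlier results of these data known, so that these contrasts are a description and not a test. With 2 arrays against 2, the smallest two-sided p of an exact permutation test is 0.333, so that single values were tested only in the fit across all probes.

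**Figure D1:**
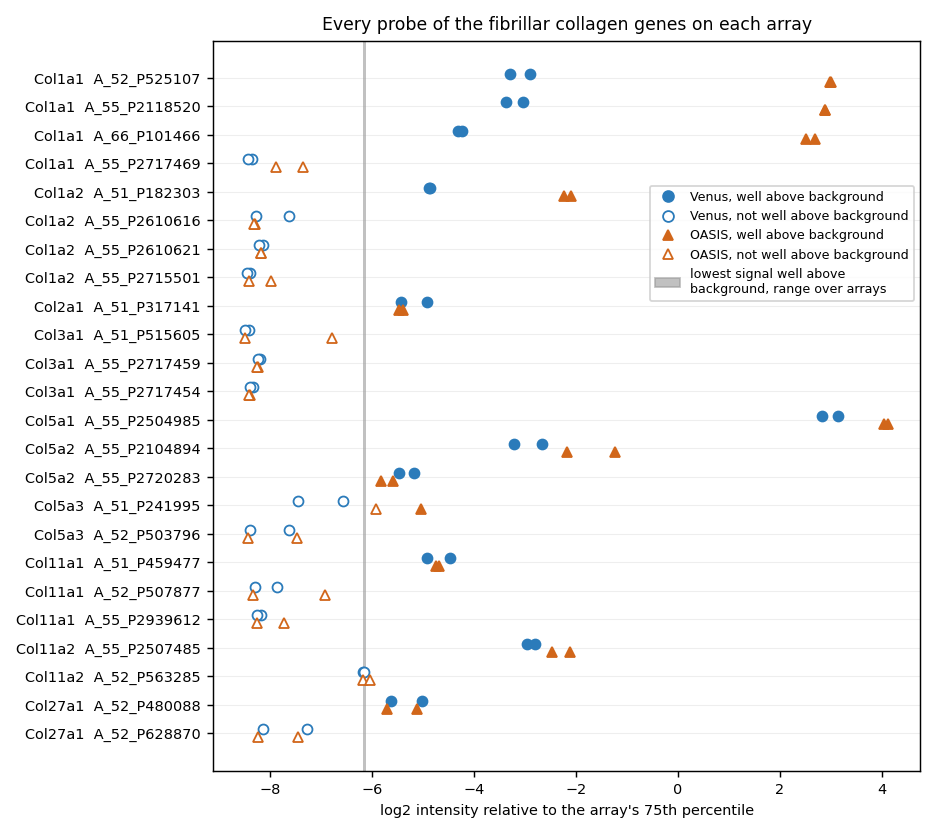
Every probe of the 10 fibrillar collagen genes on each array, as log2 intensity relative to the array's 75th percentile, with Venus arrays as circles and OASIS arrays as triangles. Filled symbols were well above background, and the grey band spans the lowest signal well above background on the 4 arrays. Among the 11 tested probes, both OASIS arrays lie above both Venus arrays for 3 Col1a1 probes, 1 Col1a2 probe, Col5a1, 1 Col5a2 probe and 1 Col11a2 probe, and 12 of the 24 probes are filled on no array.

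Col1a1 encodes the alpha 1 chain of type I collagen, the main collagen of bone, tendon, skin and scar, and lies at band qD of chromosome 11. Among the fibrillar collagens it rose most. Probe A_52_P525107 read -3.28 and -2.89 on the Venus arrays, against 2.982 and 3.003 on the OASIS arrays (log2 intensity relative to the 75th percentile). Probe A_55_P2118520 read -3.36 and -3.03 with Venus and 2.88 and 2.89 with OASIS on the same scale. Probe A_66_P101466 read -4.30 and -4.23 with Venus and 2.52 and 2.70 with OASIS. By all 3 probes both OASIS arrays were high, and the 2 groups lay at least 5.87 log2 units apart. The log2 fold changes were 6.08 ± 0.16, 6.09 ± 0.15 and 6.87 ± 0.12 (SE, n = 2 per group), which correspond to 67.7-fold, 67.9-fold and 117-fold, each with a limma adjusted p of 0.0014 or lower. With the normexp background correction they were 5.35, 5.34 and 5.63 on the log2 scale. The Venus signal was low but measured, since these probes were well above background on all 4 arrays, with corrected intensities from 47.7 to 135 where the lowest signal well above background lay between 13.5 and 14.0. The remaining probe, A_55_P2717469, annotated to an Ensembl transcript, was above background on no array. By its brightest probe Col1a1 ranked 23rd by log2 fold change among the 16313 genes tested and 1st among the 15439 whose brightest probe was well above background on all 4 arrays.

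A pair of the Col1a1 probes was printed 10 times on each array, which shows the error of a single spot. After outlier spots were left out, 8 to 10 spots remained per probe and array. Their coefficient of variation was 9.09% and 8.01% on the Venus arrays, against 3.79% and 2.89% on the OASIS arrays for A_52_P525107. For A_55_P2118520 it was 5.74% and 9.35% with Venus and 5.61% and 3.61% with OASIS. The Venus arrays differed from each other by more than this, with mean corrected intensities of 97.0 and 135 by the first probe and 91.5 and 123 by the second. The OASIS arrays lay closer together, at 7686 and 7908 by the first probe and 7190.4 and 7324 by the second. Repeated spots are 1 hybridisation of 1 sample and were averaged before the test.

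**Figure D2:**
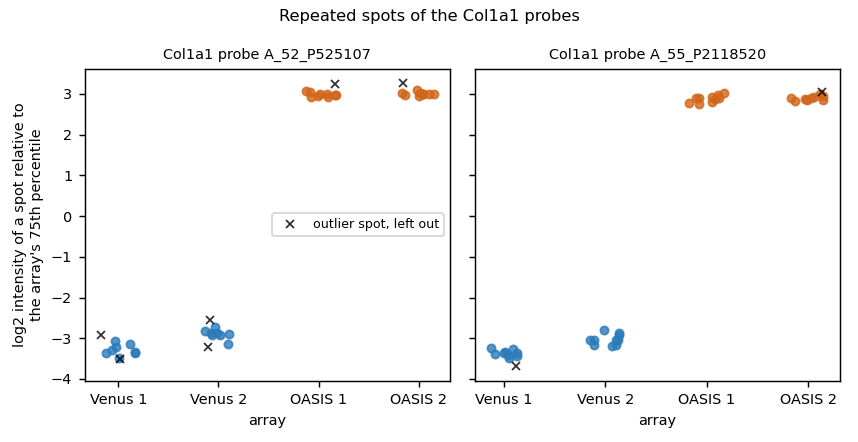
Single spots of the 2 Col1a1 probes that were printed 10 times per array, as log2 intensity relative to the array's 75th percentile. Each point is a spot and crosses are outlier spots that were left out. The spots of the OASIS arrays lie near 3 and those of the Venus arrays near -3, with Venus 2 above Venus 1.

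Col1a2, at band qA1 of chromosome 6, encodes the alpha 2 chain, which joins alpha 1 chains in the type I molecule. Its probe A_51_P182303 read -4.87 and -4.88 on the Venus arrays, against -2.09 and -2.24 on the OASIS arrays (log2 intensity relative to the 75th percentile). Both OASIS arrays were higher and the arrays of each group lay close together. The log2 fold change was 2.71 ± 0.11 (SE, n = 2 per group, limma, adjusted p = 0.0019), or 6.53-fold. The 95% interval of this change, 2.42 to 2.99, lay below that of the brightest Col1a1 probe, 5.66 to 6.51. The difference between the changes of both chains was not tested. The Venus signal of this Col1a2 probe was 32.2 and 34.2 in corrected intensity, close to the lowest signal well above background. With the normexp background correction the log2 fold change was 1.41. Another 3 probes, all annotated to Ensembl transcripts of Col1a2, were above background on no array.

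Type V collagen copolymerises with type I collagen and limits the width of its fibrils. Col5a1, at band qA3 of chromosome 2, encodes its alpha 1 chain. Its probe read 2.83 and 3.14 on the Venus arrays, against 4.05 and 4.13 on the OASIS arrays (log2 intensity relative to the 75th percentile). Unlike the type I genes, it was well into the measured range with Venus, at corrected intensities of 6699.7 and 8877, and both OASIS arrays lay above both Venus arrays. The log2 fold change was 1.10 ± 0.14 (SE, n = 2 per group, limma, adjusted p = 0.0128), with a 95% interval from 0.72 to 1.48 that includes a 2-fold change. Without Venus replicate 1 the log2 fold change was 0.94, under 2-fold, and Col5a1 was no longer called.

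Col5a2, at band qC1.1 of chromosome 1, encodes the alpha 2 chain of type V collagen, and its 2 tested probes disagreed. Probe A_55_P2104894, annotated to a RefSeq transcript, read -3.21 and -2.66 on the Venus arrays, against -2.17 and -1.24 on the OASIS arrays (log2 intensity relative to the 75th percentile). Both OASIS arrays were higher, but the OASIS arrays differed from each other by more than the nearest arrays of the 2 groups did. The log2 fold change was 1.23 ± 0.37 (SE, n = 2 per group, limma, adjusted p = 0.074). Probe A_55_P2720283, annotated to an Ensembl transcript, read -5.46 and -5.18 with Venus and -5.83 and -5.58 with OASIS, nearer to background and with both OASIS arrays lower. Its log2 fold change was -0.38 ± 0.16 (SE, limma, adjusted p = 0.143). The mean of both probes gave a log2 fold change of 0.43 ± 0.26 (SE, limma, adjusted p = 0.271), so that the rise of Col5a2 rests on the first probe. This probe passed the threshold in 7 of the 15 alternative settings tried, and without Venus replicate 1, Venus replicate 2 or OASIS replicate 2 it did not, at log2 fold changes of 0.96, 1.51 and 0.77.

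Col5a3, at band qA3 of chromosome 9, encodes the third type V chain, and neither of its 2 probes was tested. Probe A_51_P241995 read -7.45 and -6.57 on the Venus arrays, against -5.05 and -5.93 on the OASIS arrays (log2 intensity relative to the 75th percentile) and was well above background on 1 OASIS array only. Set against the lowest signal well above background on the Venus arrays, the OASIS mean was 1.58-fold higher, with no test. That mean includes OASIS replicate 2, which was not well above background, so that the value is not a firm bound. The other probe was above background on no array.

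Col3a1 encodes type III collagen, a homotrimer that accompanies type I collagen in skin, vessels and scars. It is the protein-coding neighbour of Col5a2 in the RefSeq annotation of assembly GRCm38.p6 and shares its band on chromosome 1. None of its 3 probes was well above background on any array. The probe annotated to a RefSeq transcript, A_51_P515605, read -8.41 and -8.48 on the Venus arrays, against -6.78 and -8.48 on the OASIS arrays (log2 intensity relative to the 75th percentile). OASIS replicate 1 was the highest of these values and still below the lowest signal well above background, which lay between -6.18 and -6.13. A rise of Col3a1 past that mark was therefore not seen, and a change below it could not be measured with these probes.

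Col2a1, Col11a1, Col11a2 and Col27a1 are the chains best known from cartilage, where type II collagen forms the fibril and type XI collagen starts its assembly. For Col11a2, at band qB1 of chromosome 17, probe A_55_P2507485 read -2.80 and -2.96 on the Venus arrays, against -2.11 and -2.47 on the OASIS arrays (log2 intensity relative to the 75th percentile). Both OASIS arrays were higher, and the log2 fold change was 0.59 ± 0.16 (SE, n = 2 per group, limma, adjusted p = 0.063), which met the adjusted p but not the fold. Its other probe, annotated to a different RefSeq transcript, lay at the edge of background, at corrected intensities from 13.0 to 14.9, and was above background on no array.

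The groups overlapped for the remaining cartilage-type chains. Col2a1, at band qF1 of chromosome 15, read -5.43 and -4.93 with Venus and -5.47 and -5.39 with OASIS, with a log2 fold change of -0.25 ± 0.19 (SE, limma, adjusted p = 0.391) and a 95% interval from -0.76 to 0.26. Col11a1, at band qF3 of chromosome 3, read -4.93 and -4.47 with Venus and -4.69 and -4.75 with OASIS by its only tested probe. Its log2 fold change was -0.024 ± 0.18 (SE, limma, adjusted p = 0.935), with an interval from -0.50 to 0.45. Col27a1, at band qB3 of chromosome 4, encodes a long fibrillar chain of developing cartilage and read -5.63 and -5.03 with Venus and -5.71 and -5.12 with OASIS. Its log2 fold change was -0.087 ± 0.30 (SE, limma, adjusted p = 0.853), with an interval from -0.86 to 0.69. All 3 intervals leave out a 2-fold change in either direction, while the signals of these probes were close to background, with corrected intensities from 18.5 to 45.3.

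**Figure D3:**
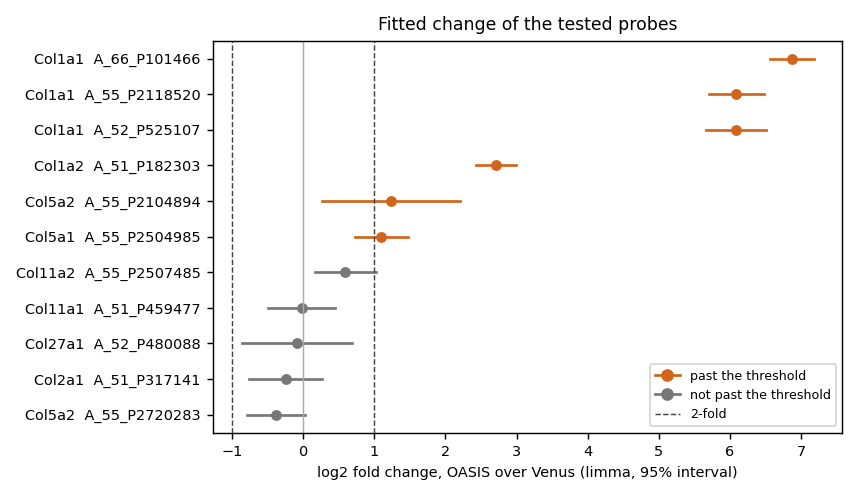
Log2 fold change of OASIS over Venus for the 11 tested fibrillar collagen probes, with the 95% interval of the limma fit from 2 arrays per group and dashed lines at a 2-fold change. The Col1a1 and Col1a2 intervals lie wholly above a 2-fold change, those of Col5a1 and of the higher Col5a2 probe cross it, and the 5 grey probes did not pass the threshold.

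Probe annotation went along with detection. Of the 15 probes annotated to RefSeq transcripts 10 were tested, and of the 9 annotated to Ensembl transcripts 1 was tested. Both OASIS arrays lay above both Venus arrays for 7 of the 11 tested probes and below them for 1, beside 28.4% and 39.6% of all probes tested. Within the control group, 9 of the 11 probes were higher on Venus replicate 2 than on Venus replicate 1, by a median of 0.33 over the 11 probes on the log2 scale, while 42.4% of all probes tested were higher on Venus replicate 2. With OASIS, 8 of the 11 probes were higher on replicate 2 than on replicate 1, beside 42.7% of all probes tested. The part that these differences within the groups have in the changes was not tested beyond leaving out each array. The 13 probes that were not tested had corrected intensities from 2.76 to 29.4, the highest being Col5a3 on OASIS replicate 1.

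**Figure D4:**
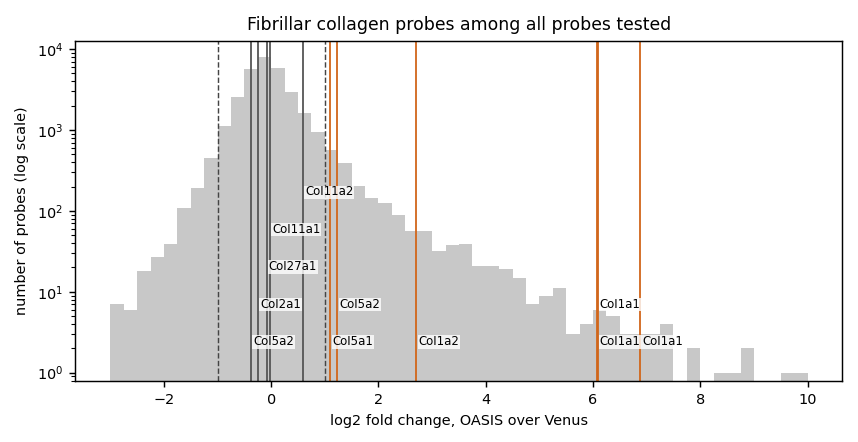
Distribution of the log2 fold change over all 31590 probes tested, in bins of 0.25 with the number of probes on a log scale, with the 11 fibrillar collagen probes as lines (orange where higher and past the threshold, grey otherwise) and dashed lines at a 2-fold change. The 3 Col1a1 probes stand in the far right tail at 6.08 to 6.87, Col1a2 stands at 2.71, and the other chains lie between -0.38 and 1.23.

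Among the genes whose pattern over the 4 arrays was most like that of Col1a1 were Pthlh, Fndc5, Slc2a10 and Rasal1. Likeness was the root mean square distance between the deviations of 2 probes from their own means over the 4 arrays, and it was 0.14, 0.24, 0.27 and 0.28 log2 units in that order. All 4 differ from Col1a1 in that both Venus arrays had them below the mark for signal well above background, so that their rises are bounds of at least 43.2-fold, 19.3-fold, 12.5-fold and 13.4-fold. Their Venus readings below that mark also enter the distances, so a small distance does not show that these genes rose as far as Col1a1. Among the fibrillar collagens Col1a2 was nearest to Col1a1, at a distance of 1.69.

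The genes that modify, export, trim, cross-link and accompany fibrillar collagens were counted by role, together with collagen receptor and degradation genes. Of 69 such genes 60 were tested, of which 18 were higher with OASIS, 0 were lower and 42 did not pass, beside 6.19% higher and 1.86% lower of all genes tested. Their median log2 fold change was 0.45. The lists were chosen with earlier results of these data known, so that this contrast with all genes is a description and not a test. All changes in the following paragraphs are log2 fold changes of the brightest probe ± SE from the limma fit with 2 arrays per group, and a gene that rose passed the threshold with an adjusted p of 0.015 or lower.

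Among the genes listed under prolyl hydroxylation, which lets the triple helix stay folded at body temperature, 3 of 9 rose. P3h4 is counted in this list by its name, and its role on prolines was not analysed. P3h4, a partner in the modification of procollagen in the endoplasmic reticulum, rose from 1.47 and 1.42 on the Venus arrays to 3.95 and 3.57 on the OASIS arrays in log2 intensity, a change of 2.32 ± 0.16 (adjusted p = 0.0044), and all 3 of its probes were called. P4ha2, a catalytic subunit of prolyl 4-hydroxylase, rose by 1.71 ± 0.11 (adjusted p = 0.0041). Its relative P4ha1 rose by 1.0002 ± 0.14, at the edge of the 2-fold threshold, and its other probe did not pass. Of the genes for lysyl hydroxylation and glycosylation, 3 of 6 rose. These were Fkbp10, a chaperone needed for lysyl hydroxylation of collagen telopeptides, by 1.53 ± 0.12, the galactosyltransferase gene Colgalt1 by 1.06 ± 0.13, with 0.91 ± 0.19 by its other probe, which did not pass, and the lysyl hydroxylase gene Plod1 by 1.02 ± 0.11.

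Chaperone and secretion genes had 5 of 12 higher. Sec24d, a cargo-binding subunit of the COPII coat, went from -0.07 and -0.05 on the Venus arrays to 2.80 and 2.50 on the OASIS arrays in log2 intensity, a change of 2.71 ± 0.14 (adjusted p = 0.0028). Fkbp14, a prolyl isomerase of the endoplasmic reticulum, rose by 2.52 ± 0.13 and was called by all 3 of its probes. The COPII coat gene Sec23a rose by 2.06 ± 0.12 and the COPII GTPase gene Sar1a also by 2.06 ± 0.10, the latter by 1 of 2 probes. Serpinh1, the collagen-specific chaperone HSP47, read 0.74 ± 0.10 (adjusted p = 0.0129), which met the adjusted p but not the fold.

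Outside the cell, 2 of 6 genes for propeptide trimming rose, Pcolce2, an enhancer of procollagen C-proteinase, by 2.22 ± 0.13 and Adamts14, a procollagen N-proteinase, by 1.12 ± 0.11. Of the 5 lysyl oxidase genes 2 rose. Lox went from 0.09 and 0.60 on the Venus arrays to 4.37 and 4.27 on the OASIS arrays in log2 intensity, a change of 3.97 ± 0.20 (adjusted p = 0.0026) that both of its probes showed, and Loxl2 rose by 1.69 ± 0.23, while its other probe read 0.84 ± 0.21 and did not pass. Among 9 fibril partners Col6a3, a chain of the microfibrillar type VI collagen, rose by 1.91 ± 0.12 by its single tested probe, and Col12a1, which binds to the surface of fibrils, rose by 1.08 ± 0.10 by 1 of 2 tested probes. None of the 6 tested collagen receptor genes passed by its brightest probe, while 1 of 3 tested probes of Itga1 was called higher. The widest value among the brightest receptor probes was 1.91 ± 0.90 for Itga11 (adjusted p = 0.188). It came from a probe that was above background on 1 of the 2 Venus arrays. Of 7 degradation genes Mrc2, an endocytic receptor for collagen, was higher, at least 6.91-fold against Venus arrays on which it was not well above background.

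**Figure D5:**
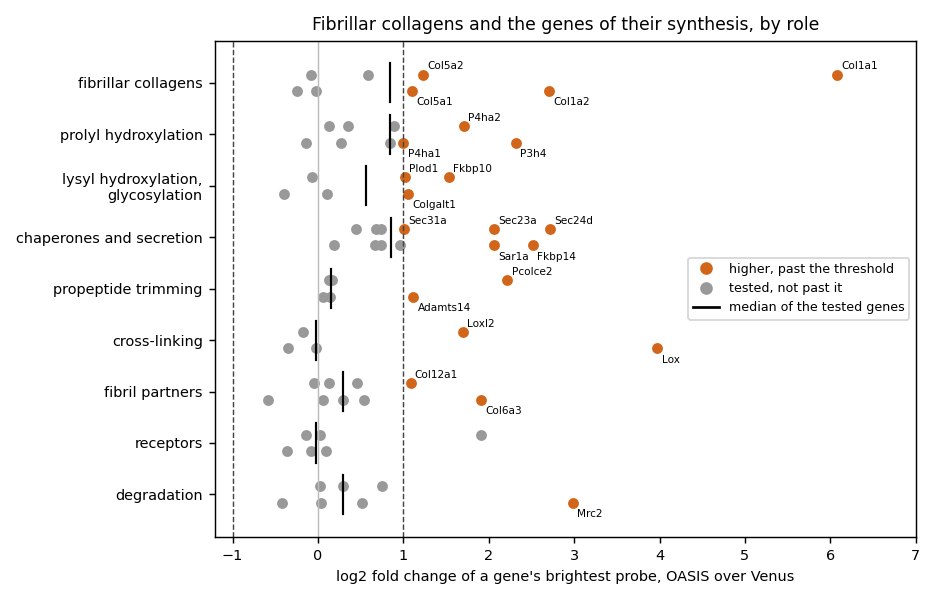
Log2 fold change of OASIS over Venus for each tested gene, by its brightest probe, in the fibrillar collagens and in 8 role lists. Named orange points were higher and past the threshold, grey points were not past it, and black bars are the medians of the tested genes. The value of Mrc2 is the fitted one, although its probe was not well above background on the Venus arrays. The medians run from -0.026 for receptors to 0.85 for chaperones and secretion, and Col1a1 lies above every other gene shown.

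The samples were bulk RNA of a single cell line. A change in the share of cells in some state and a change in RNA per cell cannot be told apart in them. Markers of collagen-making cells were therefore read beside the collagens. Of 10 fibroblast markers 7 were tested and 1 was higher, Pdgfra, at least 7.95-fold. The summed level of the 7 tested markers, on the linear scale with the 75th percentile set to 1, was 237 and 229 with Venus and 215 and 204 with OASIS. Tagln and Acta2 made up 96.5% to 97.3% of it, so that the sum speaks mainly of these genes. Thy1, Lum and Dpt were not tested, since they did not pass the filter on background. Of 9 osteoblast markers 6 were tested and 0 passed in either direction by the brightest probe. For Runx2, 1 of 2 tested probes was called lower. The osteoblast sums were 190 and 159 with Venus and 158 and 144 with OASIS, of which Spp1 made up 98.9% to 99.2%. Ibsp, Dmp1 and Phex were not tested. Of 10 chondrocyte markers 5 were tested and 0 passed, with sums of 21.7 and 18.6 with Venus and 19.3 and 14.2 with OASIS, of which Sox5 made up 95.9% to 98.1%, and Acan, Matn1, Matn3, Hapln1 and Col9a1 were not tested. Endothelial and tubule markers had 1 gene higher each, Egfl7 of 2 tested and Lrp2 of 4 tested. Of the 5 tested Lrp2 probes 2 were called. Over all genes tested 6.19% were higher and 1.86% were lower, so that counts in marker lists this short say little. Dcn and Lum stand in both the fibroblast and the fibril partner lists. The part that these marker changes, Pdgfra among them, have in the changes of the collagens was not tested.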

How the data were processed

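RNA of 4 samples, 2 per group as the labels give them, was read on 1-colour arrays whose design build was mm9. The authors deposited, per spot, an intensity corrected for background by Agilent Feature Extraction 12.1.0.3, with the median spot and background intensities and marks for outlier and background. They also deposited a table of the same intensity times 1 factor per array, with a detection score, gene symbols and bands, which named the probes.

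Outlier and control spots were left out, the array's 75th percentile was subtracted from the log2 values, and repeated spots were averaged. A probe was well above background where at least 0.5 of its spots were. Of 56605 probes 31599 passed the filter, and 9 of these lacked a value on an array and were left out. A gene was represented by its probe with the highest mean. Groups were compared with limma 3.58.1 (lmFit, eBayes) in R 4.3.3 with Benjamini-Hochberg adjustment over all 31590 probes. A probe above background on no array of a group has a bound, the mean of the brighter group over the mean, per array, of the higher of its own signal and the lowest signal well above background. The fit was tested on simulated data. The number of arrays limits the precision.

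The members and gene lists were chosen with earlier results of these data known. The text names every member, Creb3l1, 5 podocyte markers, from each role list the called genes (at most 4 of the largest change) and the 5 genes nearest to Col1a1. Not every gene chosen in this way is reported here. Serpinh1, Itga1, Itga11 and the markers of other cell types were named after their values were seen. Genome sequence was not used, so positions are chromosome bands and no sequence is printed. The alternatives were other scalings, normexp correction (offset 50, on median intensities), the authors' values, filters, outlier spots, an eBayes trend, the methods' t-test, an adjusted p under 0.05, a replicate block, the mean of a gene's probes and leaving out each array.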

Additional observations from a re-analysis of the deposited data

How the results depend on the processing

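Over all alternatives, 0 fibrillar collagen genes or probes were called lower and Col1a1 and Col1a2 were called higher, with log2 fold changes of the brightest Col1a1 probe from 5.35 to 6.28 and of Col1a2 from 1.41 to 2.78. The count of higher fibrillar collagen genes, 4 in the report, was 2 under the methods' t-test and 3 or 4 under the other alternatives that kept all arrays. It ran from 2 to 4 when each array was left out. It was 2 without Venus replicate 1, where the lone Venus array was assumed to vary like the OASIS arrays. The methods' t-test lost Col5a1 (adjusted p = 0.123) and Col5a2 (adjusted p = 0.296), and without Venus replicate 1 the same genes fell under 2-fold. Col5a2 also lost its call under normexp correction (log2 fold change 0.88), the authors' scaled values (adjusted p = 0.1002), no filter on dim probes (adjusted p = 0.223) and an adjusted p under 0.05. The 18 higher genes of the role lists, receptors and degradation included, became 12 under the methods' t-test. They ran from 14 to 19 under the other alternatives that kept all arrays. Over all genes, normexp gave 652 higher and 137 lower, the methods' t-test 337 and 68, and leaving out OASIS replicate 2 gave 476 lower, against 1009 and 304. The cause of these shifts was not tested. With the replicate block, 4 fibrillar collagen genes and 6 probes were higher and no call changed among them. The numbers did not count as pairs, since there are only 2 of them (correlation of same-numbered deviations 0.26). Signals near background limit what could be seen of Col3a1, Col5a3, Col2a1, Col11a1 and Col27a1. The planned search of promoters for motifs was not run, since no promoter sequences were used here.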

Other observations

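The genes next to the fibrillar collagens on the chromosome were read for their own changes, a choice made after values had been seen. In the RefSeq annotation of assembly GRCm38.p6 the fibrillar collagen genes have 18 protein-coding neighbours that are not themselves fibrillar collagens, and 13 of these were tested by limma. Past the threshold, 2 were higher with OASIS and 1 was lower, beside 6.19% higher and 1.86% lower of all genes tested. Bet1, which encodes a SNARE of vesicles between the endoplasmic reticulum and the Golgi and lies next to Col1a2, changed by 2.14 ± 0.15 (log2 fold change ± SE, limma, adjusted p = 0.0045). Kif12, a kinesin gene next to Col27a1, changed by 2.83 ± 0.26 (limma, adjusted p = 0.0070) by its brighter probe and by 0.0053 ± 0.11 (adjusted p = 0.978) by the other, while Col27a1 did not pass. Olfm3, next to Col11a1, was at least 3.98-fold lower with OASIS (limma, adjusted p = 0.0106), since both OASIS arrays had it below the mark for signal well above background, while Col11a1 did not pass. The neighbours of Col1a1 and Col5a1 that were tested, Sgca at 0.27 ± 0.13 and Rxra at 0.58 ± 0.11, did not pass.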
